A study of Rattus norvegicus with 12 samples.

Results

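Neurofilaments and the other structural proteins of axons and dendrites were followed through 10 genes in the injured rat spinal cord. Nefl, Nefm and Nefh encode the light, medium and heavy neurofilament subunits. Ina encodes alpha-internexin, Prph peripherin, Tubb3 the neuronal class of beta-tubulin, Map2 the microtubule-associated protein of dendrites, Stmn2 the tubulin-binding protein of growth cones, Gap43 a growth cone membrane protein and Uchl1 an abundant ubiquitin hydrolase of neurons. The genes were chosen by name, and all 10 were found among the 17423 genes listed in each phase, Nefh by its RGD identifier and the other 9 through the symbols of the study's supplementary gene table.

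The study compared 2 rat strains after spinal cord contusion: Sprague-Dawley (SD, Hsd:SD) rats, which have T cells, and athymic nude (AN, Hsd:RH-rnu/rnu) rats, which carry the nude mutation on both alleles and lack mature T cells. All rats were female, 16 to 18 weeks old, and received the same moderate contusion of 200 kdyn at T8/T9, so that no group was uninjured. RNA was taken from a 1 mm segment through the injury site after perfusion with saline, in 3 SD and 3 AN rats at 1 week (acute phase) and in 3 of each strain at 8 weeks (chronic phase). The AN line has its own outbred background, so the missing T cells and the rest of the strain's genome cannot be told apart.

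Each phase was available as 1 FPKM (sequenced fragments for each kilobase of transcript, scaled to the depth of the libraries) for each group of 3 rats. The spread between rats is therefore unknown, no difference below was tested, and values are the authors' group values. Strain ratios were taken as the log2 of the AN value divided by the SD value, and nothing was added to either. Genes whose 2 group values averaged an FPKM of at least 1, with both above 0, were used as the background, and all 10 genes passed in both phases. Their SD and AN values were all above 1 except that of Ina in acute AN rats (0.901). In bulk tissue, fewer cells of a type and less RNA per cell cannot be told apart.

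Neurofilaments are the intermediate filaments of neurons. They are built from the light, medium and heavy chains together with alpha-internexin or peripherin, they fill the cores of large axons and set axon caliber, and their transcripts lie mostly in the cell body. Peripherin is typical of motor neurons and of peripheral sensory neurons, whereas Gap43 and Stmn2 are also known as genes that growing and regenerating neurons use. In spinal cord, the neurons that hold these transcripts lie in the grey matter, while the axons that cross the segment also come from cell bodies elsewhere.

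RefSeq promoter windows on the GRCr8 assembly were at hand for Ina, Prph, Tubb3, Map2 and Uchl1. The windows of Prph and Ina, from the intermediate filament genes, are shown with those of Tubb3 and Uchl1, whose strain differences were smaller. The window of Map2, also lower in AN rats, is described below but not printed. Shared control of these genes was not tested. Each line gives the 250 bases before the transcription start, 5′ to 3′ on the strand of the gene, and capitals mark a match to TATAAA on either strand.
Prph, chr7:132097039-132097288, plus strand: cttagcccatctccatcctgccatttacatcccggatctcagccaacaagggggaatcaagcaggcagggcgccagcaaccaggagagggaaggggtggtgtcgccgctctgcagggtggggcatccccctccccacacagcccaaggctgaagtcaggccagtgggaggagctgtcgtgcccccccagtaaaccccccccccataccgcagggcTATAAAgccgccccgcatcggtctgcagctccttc
Ina, chr1:255837879-255838128, plus strand: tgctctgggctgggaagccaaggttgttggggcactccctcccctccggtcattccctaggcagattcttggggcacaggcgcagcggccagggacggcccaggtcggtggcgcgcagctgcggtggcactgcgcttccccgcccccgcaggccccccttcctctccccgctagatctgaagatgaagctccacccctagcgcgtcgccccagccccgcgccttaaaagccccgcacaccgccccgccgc
Tubb3, chr19:68365437-68365686, plus strand: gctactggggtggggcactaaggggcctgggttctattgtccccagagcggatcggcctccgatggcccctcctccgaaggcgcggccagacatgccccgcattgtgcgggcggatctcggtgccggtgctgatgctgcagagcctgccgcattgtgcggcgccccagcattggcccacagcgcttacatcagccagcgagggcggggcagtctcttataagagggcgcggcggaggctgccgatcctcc
Uchl1, chr14:41849418-41849667, minus strand: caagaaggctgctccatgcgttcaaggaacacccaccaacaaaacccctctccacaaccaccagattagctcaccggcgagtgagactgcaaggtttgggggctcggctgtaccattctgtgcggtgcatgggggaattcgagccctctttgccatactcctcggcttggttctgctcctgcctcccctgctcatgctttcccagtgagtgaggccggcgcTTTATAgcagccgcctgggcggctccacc

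The Prph window held TATAAA on the gene's strand, 35 to 30 bases before the start. Among all 33469 windows of the same length, 2.26% held TATAAA on the gene's strand within the last 50 bases, and 12.9% held it anywhere on either strand. In Uchl1 the letters lay on the opposite strand, 29 to 24 bases before the start. The motif GGGCGG, searched on both strands and found in 30.5% of all windows, was present in these 4 windows and absent from that of Map2. CAGCTG occurred in Ina alone of the 5 windows, against 12.0% of all windows, and CCAAT in Tubb3 alone, against 34.02%. The GC content was 70.8% for Ina, 68% for Tubb3, 64.4% for Prph, 59.6% for Uchl1 and 32% for Map2, beside a median of 51.2% over all windows. No match overlapped another, and the matches are descriptions of letters only.

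The light and medium chains showed the widest gap between the strains at 1 week. Nefl (RGD:621458, chr15:47636289-47640176 in the RN4 coordinates of the tables) was at an FPKM of 205.2 in acute SD and 8.68 in acute AN rats, and at 170.4 in chronic SD against 41.4 in chronic AN rats. The level in AN rats was thus 23.6-fold lower in the acute phase (log2 ratio -4.56) and 4.11-fold lower in the chronic phase (-2.04). Nefm (RGD:3160, chr15:47698370-47703350), which lies 58194 bases from Nefl, followed it closely, with 189.1 in acute SD against 9.14 in acute AN rats, and 146.5 in chronic SD against 37.9 in chronic AN rats. Its strain difference was 20.7-fold at 1 week and 3.87-fold at 8 weeks. Both chains were low in the acute AN group and intermediate in the chronic AN group, and each SD value lay above each AN value.

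Nefh (chr14:85561380-85612915), whose long tail carries the phosphorylation sites of mature axons, was less reduced than its partners. Its FPKM was 117.1 in acute SD against 11.8 in acute AN rats, and 85.3 in chronic SD against 22.9 in chronic AN rats, or 9.94-fold and 3.72-fold lower in AN rats. The Nefh locus of the tables spans 51536 bases, 5.16 times the RefSeq gene on GRCr8, and has the same coordinates as another identifier, RGD:1304991, whose FPKM was 29.1 and 31.6 in acute SD and AN rats and 27.6 and 26.8 in chronic SD and AN rats. Nefl likewise shares its coordinates with RGD:2323674, whose values were 17.3 to 20.7 times below those of Nefl in the 4 groups. How reads were divided within these shared loci is not known, so Nefh and Nefl levels are uncertain to that extent.

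Peripherin and alpha-internexin, the other intermediate filament partners, were lower in AN rats by larger factors than Nefh. Prph (RGD:3414, chr7:137836151-137839931) was at 53.1 in acute SD against 2.71 in acute AN rats, and 28.4 in chronic SD against 7.22 in chronic AN rats, which is 19.6-fold and 3.93-fold lower in AN rats. Ina (RGD:2911, chr1:252328185-252340997) was the least abundant of the 10 genes in all 4 groups, with 13.3 in acute SD against 0.901 in acute AN rats, and 14.7 in chronic SD against 2.19 in chronic AN rats. Ina had the widest chronic difference of the 10 genes, at 6.73-fold, after 14.7-fold in the acute phase. The acute minus chronic log2 ratio was -1.13 for Ina and -2.52 for Nefl. With an acute AN value below 1, Ina passed the filter at 1 week only through its SD value, so that its acute ratio and its place among the 10 genes are uncertain.

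**Figure D1:**
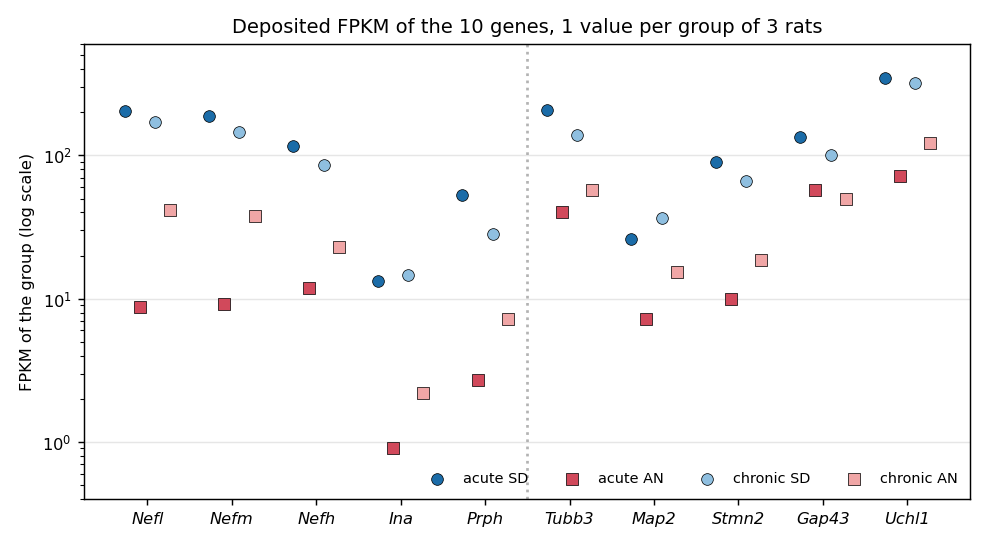
FPKM of the 10 genes on a log axis, with 1 point for each group of 3 rats and no error bars because values per rat were not at hand. Circles are SD and squares AN rats, dark for 1 week and light for 8 weeks; for every gene both squares lie below both circles, with the lowest point at 0.901 for Ina in acute AN rats.

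The tubulin-associated genes were lower in AN rats by smaller factors. Tubb3 (RGD:628595, chr19:53742651-53751706) was at 206.5 in acute SD against 40.1 in acute AN rats, and 138.7 in chronic SD against 57.5 in chronic AN rats, which is 5.15-fold and 2.41-fold lower in AN rats. Map2 (RGD:3044, chr9:65174375-65256003), a marker of cell bodies and dendrites more than of axons, was at 25.9, 7.19, 36.4 and 15.3 in the same order, or 3.601-fold and 2.39-fold lower. The Map2 locus of the tables spans 81629 bases, 0.316 of the RefSeq gene on GRCr8. Stmn2 (RGD:68947, chr2:95284902-95332686) was at 89.6, 10.02, 66.6 and 18.7, or 8.93-fold and 3.56-fold lower. Stmn2 thus lay nearer to Nefh than to Tubb3 in both phases.

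Gap43 and Uchl1 closed the list. Gap43 (RGD:62071, chr11:59989084-60083971) showed the smallest strain difference of the 10 genes in both phases, with 134.3 in acute SD against 56.96 in acute AN rats, and 100.5 in chronic SD against 49.3 in chronic AN rats. It was 2.36-fold lower in AN rats at 1 week and 2.04-fold lower at 8 weeks, so that its chronic value lay just past the 2-fold line. Uchl1 (RGD:3928, chr14:44114391-44124947) was the most abundant of the 10 in all 4 groups, with 347.5, 71.3, 321.6 and 121.8, or 4.87-fold and 2.64-fold lower in AN rats.

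All 10 genes were at least 2-fold lower in AN rats in the acute phase, where 10.1% of the 11068 genes of the background were. All 10 were also at least 2-fold lower in the chronic phase, beside 5.55% of 11198 genes. All of them but Nefh were named through the supplementary gene table, in which genes lower in AN rats are over-represented. Background genes named by that route were at least 2-fold lower in 54.0% of cases at 1 week and 27.5% at 8 weeks. These shares lie closer to the 10 genes than those of the whole background, and the 10 genes were not tested against them. At least 4-fold lower were 8 of the 10 in the acute phase, beside 3.15% of the background, and Nefl and Ina alone in the chronic phase, beside 1.93%. The median log2 ratio of the 10 genes was -3.24 at 1 week, a 9.42-fold difference, and -1.86 at 8 weeks, a 3.64-fold difference. Over all genes of the background the medians were 0.0066 and 0.0075, and the lowest 1% of genes began at -3.17 and -2.49. Counted from the lowest ratio of the background, Nefl was at place 24 and Gap43 at place 838 in the acute phase, and Ina at place 79 and Gap43 at place 598 in the chronic phase.

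The 5 intermediate filament genes and the other 5 genes formed separate ranges in both phases. In the acute phase the intermediate filament genes ran from -4.56 to -3.31 with a median of -4.29, whereas the other genes ran from -3.16 to -1.24 with a median of -2.28. In the chronic phase the ranges were -2.75 to -1.90 and -1.83 to -1.03, with medians of -1.98 and -1.27. Nefh and Stmn2 were the neighbours at the boundary, and with 1 value a group it is not known whether they differ beyond the spread between rats.

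The acute strain ratio was below the chronic one, and so further from 0, for all 10 genes. The share of all genes with a lower acute ratio was not counted, but their median difference also lay slightly under 0 (-0.04). The acute ratio was at least 2-fold below the chronic ratio in 7 of 10, beside 5.38% of the 10858 genes with a ratio in both phases. The difference was widest for Nefl (acute minus chronic log2 ratio -2.52), Nefm (-2.42) and Prph (-2.31), and narrowest for Gap43 (-0.21), Map2 (-0.59) and Uchl1 (-0.88). The median of the acute minus the chronic log2 ratio was -1.23 for the 10 genes and -0.04 for all genes. This quantity does not depend on the scaling between the tables, which were normalized separately.

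**Figure D2:**
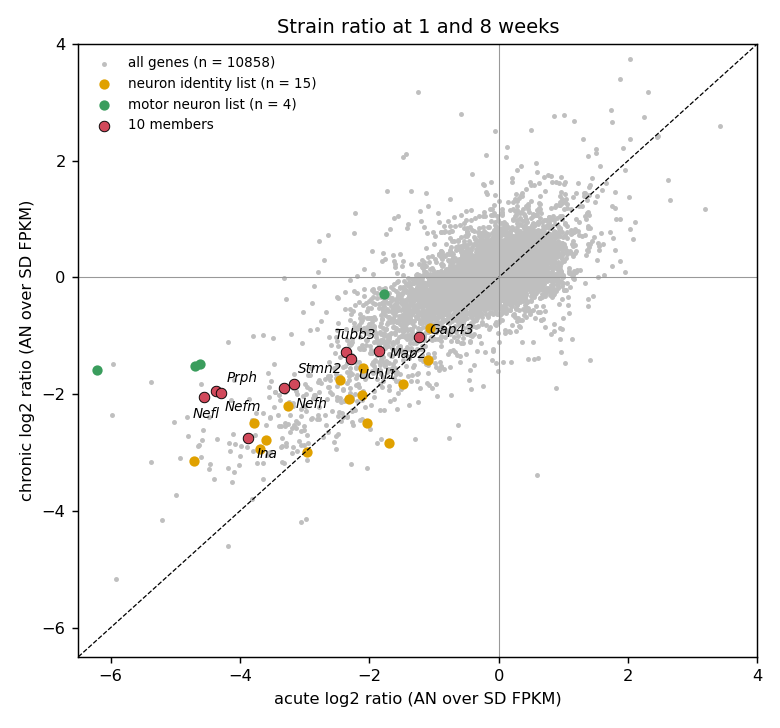
Log2 ratio of AN over SD FPKM at 1 week (x) and 8 weeks (y), 1 point a gene, with the 10858 background genes in grey, neuron identity genes in yellow, motor neuron genes in green and the 10 genes in red. All 10 lie left of 0, below 0 and above the dashed line of equal ratios; Nefl, Nefm and Prph sit together near -4.4 and -2.0, and Gap43 lies nearest to 0.

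Set side by side across the tables, the values of the 2 phases lay further apart in AN than in SD rats for 8 of the 10 genes, near the 73.7% of all genes that did so. The exceptions were Tubb3 (log2 of 8 weeks over 1 week -0.57 in SD and 0.52 in AN rats) and Gap43 (-0.42 and -0.21). At 8 weeks 9 of 10 genes were higher than at 1 week in AN rats, beside 52% of the background, by 4.77-fold for Nefl, 4.14-fold for Nefm, 2.66-fold for Prph, 2.43-fold for Ina and 2.12-fold for Map2. Those 5 were at least 2-fold higher, beside 11.8% of the background genes, whereas in SD rats 0 of 10 were, beside 3.29%. Gap43 alone was lower at 8 weeks in AN rats. In SD rats 8 of 10 genes were lower at 8 weeks, beside 48.6% of the background, between -0.11 for Uchl1 and -0.90 for Prph on the log2 scale, while Map2 (0.49) and Ina (0.15) were higher. The median over all genes was 0.011 in SD and 0.023 in AN rats for the same difference.

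The summed FPKM of the 10 genes was 1381 in acute SD against 218.8 in acute AN rats, and 1109 in chronic SD against 374.3 in chronic AN rats. That is 0.226%, 0.0335%, 0.1805% and 0.0580% of the FPKM of all genes in those groups. The sum was thus lowest in the acute AN group, and the chronic AN group remained below both SD groups.

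Because FPKM is per length, the levels of the 3 neurofilament chains can be set against each other. In acute SD rats Nefl made up 40.1%, Nefm 37.0% and Nefh 22.9% of their summed FPKM, and in chronic SD rats 42.4%, 36.4% and 21.2%. The chronic AN group was close to these values, with 40.5%, 37.0% and 22.4%. The acute AN group stood apart, with 29.3% Nefl, 30.9% Nefm and 39.8% Nefh. The ratio of Nefl to Nefh levels was 1.75 in acute SD against 0.737 in acute AN rats, and 1.996 in chronic SD against 1.81 in chronic AN rats, whereas Nefl to Nefm stayed between 0.950 and 1.16. The shared coordinates of Nefh touch this result. The other identifier of that locus stayed between 26.8 and 31.6 in the 4 groups, below Nefh in both SD groups and above it in both AN groups, and its part was not tested.

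**Figure D3:**
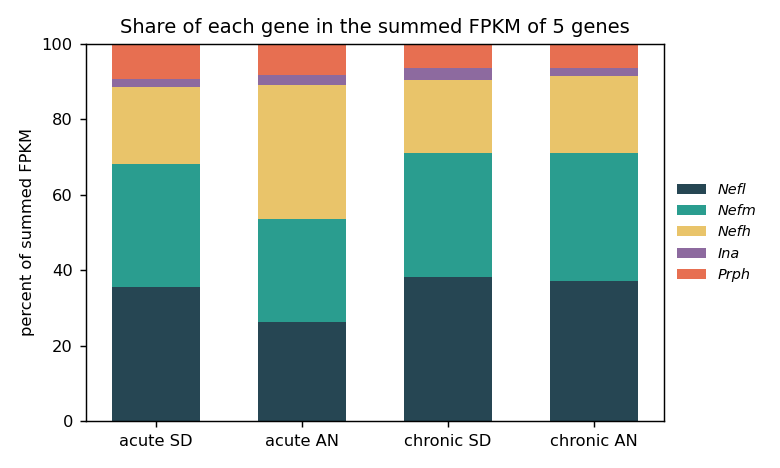
Percent of the summed FPKM of the 5 intermediate filament genes taken by each gene, 1 stacked bar for each group of 3 rats. Nefh takes 35.5% in acute AN rats and 19.2% to 20.5% in the other 3 groups.

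The order of levels differed between the strains in both phases. Nefl was the third most abundant of the 10 genes in acute SD rats and the seventh in acute AN rats, and Gap43 was the fifth in the former and the second in the latter. At 8 weeks Nefl was the second in SD and the fourth in AN rats, and Gap43 the fifth and the third. The Gap43 level was 0.654 times that of Nefl in acute SD and 6.56 times in acute AN rats, against 0.590 and 1.19 times in chronic SD and chronic AN rats. The Tubb3 level was 1.01 and 4.61 times that of Nefl in acute SD and AN rats, and 0.814 and 1.39 times in chronic SD and AN rats. The Map2 level was 0.126 and 0.828 times that of Nefl in acute SD and AN rats. For each of these genes the ratio to Nefl was highest in the acute AN group.

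Genes with the most similar pair of strain ratios were sought among 6357 named genes with a mean FPKM of at least 5, by the distance between the acute and chronic log2 ratios. Nearest to Nefl were Nefm (0.21), Prph (0.28), Phyhip (0.36), Syt2 (0.44), which encodes a synaptic vesicle calcium sensor, and Grxcr1 (0.55). Nearest to Nefm were Prph (0.083), Nefl (0.21), Grxcr1 (0.34), Phyhip (0.45) and Pvalb (0.52), which encodes the calcium buffer parvalbumin. Among the nearest to Nefh were Kcnip1 (0.13), which encodes a potassium channel-interacting protein, the dynein chain gene Dync1i1 (0.15), the calcium pump gene Atp2b2 (0.16) and Stmn2 (0.17). Phyhip was at 7.42 in acute SD and 0.333 in acute AN rats, and Syt2 and Grxcr1 also had acute AN values below 1, so their distances are uncertain. All of these genes were named through the supplementary gene table, in which genes lower in AN rats are over-represented, as counted below.

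Other cytoskeletal genes were counted by lists. The identifiers carry no symbols, and only 57.8% of them could be named. Names came in part from the study's supplementary gene table, and 54.0% of the acute and 27.5% of the chronic background genes named that way were at least 2-fold lower in AN rats, against 1.04% and 1.03% of those named by synonym and 1.48% and 1.09% of those named by gene order. Lists therefore lean to genes that differ where the supplementary table named them, and away from such genes where gene order did. Their counts are given as such. A list gene with an AN FPKM below 1 passed the filter only through its SD value and had to be lower in AN rats. Its ratio is uncertain, and such genes are pointed out in each list. Over all named genes 13.4% were at least 2-fold lower at 1 week and 7.25% at 8 weeks.

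Of 13 named genes for other axonal microtubule proteins, 6 were at least 2-fold lower in AN rats at 1 week and 2 at 8 weeks, with median log2 ratios of -0.93 and -0.49. Mapt, which encodes tau, had the lowest acute ratio of these (-1.34, with 52.0 in acute SD and 20.5 in acute AN rats), and Dpysl2, a collapsin response mediator, the highest (-0.25). Of 14 genes for the axonal membrane skeleton and growth cone, 9 and 5 were lower, of which 2 and 1 had an AN value below 1, with list medians of -1.30 and -0.67. Cfl1, the actin-severing cofilin of most cells, had ratios of 0.15 and -0.13.

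Of 18 genes for axonal transport motors and cargo, 7 were at least 2-fold lower at 1 week and 3 at 8 weeks, with medians of -0.66 and -0.23. Sncb, the synuclein of presynaptic terminals, had -4.40 and -3.46, and App had -0.13 and 0.21. Of 9 genes for kinases, linkers and turnover of neurofilaments, 1 was lower in each phase, with list medians of -0.18 and -0.13. This was Cdk5r2, an activator of the kinase Cdk5, with -3.37 and -2.55 and an acute AN value below 1 (0.696). Of the 9, 7 were named by gene order, and the 2 others had medians of -2.16 and -1.45. Of 20 regeneration-associated genes only 6 were named, and 4 of the 6 that passed the filter at 1 week and 3 of the 5 at 8 weeks were lower, with medians of -1.89 and -1.92, among them the neuropeptide gene Cck (-3.11 and -2.49). Of those lower, 2 at 1 week (Reg3b and Vip) and 1 at 8 weeks (Vip) had an AN value below 1. None of the named genes of these 5 lists was at least 2-fold higher in AN rats in either phase, beside 1.89% of the background in the acute and 2.05% in the chronic comparison.

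The named intermediate filaments of other cells lay mostly within 2-fold between the strains. Of 9 named genes, 2 of 9 and 1 of 8 were at least 2-fold lower, and the medians were 0.12 and 0.35. Vim, the vimentin of glia, fibroblasts and macrophages, was at 3657 in acute SD and 3968 in acute AN rats, and at 2543 and 3413 in the chronic groups. Gfap, the filament of astrocytes, was at 3957 and 1424 in the acute groups, and in the chronic phase it was listed at 0 in SD rats and at 5824 in AN rats. Both were named by gene order, and no ratio was taken against the value of 0. Krt19, an epithelial keratin, had ratios of -2.46 and -1.69, the former with an AN value below 1 (0.457).

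**Figure D4:**
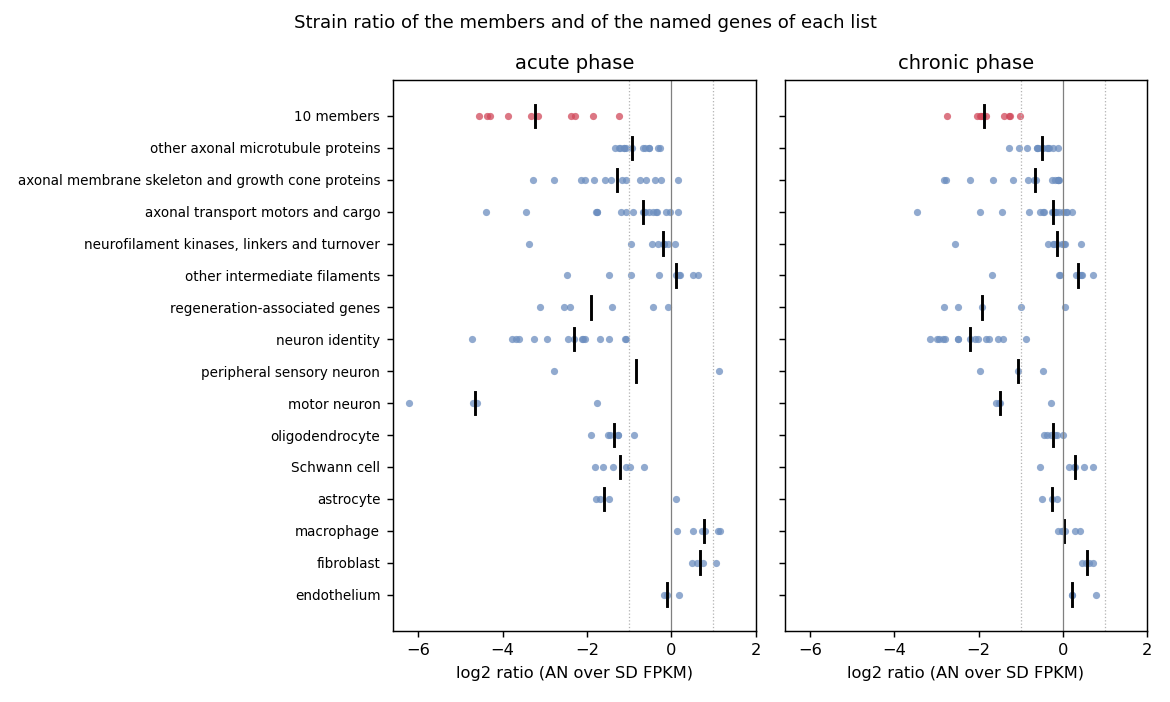
Log2 ratio of AN over SD FPKM in the acute (left) and chronic (right) phase, 1 point a gene, for the 10 genes in red and the named genes of 15 lists in blue, with a black bar at each median and dotted lines at 2-fold. The 10 genes have medians of -3.24 and -1.86, neuron identity genes -2.31 and -2.20, and oligodendrocyte genes -1.35 and -0.23.

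Neuron identity genes were lower in AN rats too. Of 15 that passed the filter, 15 were at least 2-fold lower in AN rats at 1 week and 14 at 8 weeks, with medians of -2.31 and -2.20. Of 22 symbols 16 were named, and all 15 that passed came from the supplementary gene table. Of background genes named that way, 54.0% were at least 2-fold lower at 1 week and 27.5% at 8 weeks. Elavl2 and Elavl4, RNA-binding proteins of neurons, had AN values below 1 in both phases. The list's summed FPKM was 867.3 in acute SD against 198.2 in acute AN rats, and 1099 in chronic SD against 272.9 in chronic AN rats, and no named marker of the list was at 0. Snap25, a presynaptic membrane fusion protein, was at 178.8, 6.79, 212.9 and 24.1 in those groups. Relative to the median of this list, 7 of the 10 genes lay below it in the acute phase, with a median of -0.93 and a range from -2.25 for Nefl to 1.07 for Gap43. In the chronic phase Ina alone lay below it, and the median of the 10 genes lay 0.34 above that of the list.

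Motor neuron genes were at low levels, most of all in acute AN rats. Of 4 that passed the filter, 4 were at least 2-fold lower at 1 week (median -4.66) and 3 at 8 weeks (-1.501), and no named marker was at 0. At 1 week 3 of the 4 (Chat, Slc18a3 and Slc5a7) had an AN value below 1, and at 8 weeks Chat did. The remaining gene, Ret, a receptor of neurotrophic factors, was at 15.0 in acute SD and 4.39 in acute AN rats. Slc18a3, the vesicular acetylcholine transporter, was at 6.39 in acute SD against 0.246 in acute AN rats, and 5.22 in chronic SD against 1.82 in chronic AN rats. Chat, which makes acetylcholine and was named by gene order, was at 2.55, 0.0345, 2.24 and 0.745. With the reads behind these low AN values unknown, the list's acute count and median are no support for a difference. Of the peripheral sensory neuron markers 2 passed the filter in the acute phase, Tac1 with -2.78 and Calcb with 1.13, and 2 of 3 were lower in the chronic phase. The other, P2rx3, had a chronic AN value below 1 (0.839).

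Named markers of glia were mostly lower in acute AN rats, and those with a ratio at 8 weeks were within 2-fold. Gfap, listed at 0 in chronic SD rats, has no chronic ratio, and that value cannot be read as a strain difference. For oligodendrocytes, 5 of 6 genes were at least 2-fold lower at 1 week and 0 of 6 at 8 weeks, with sums of 2043 and 929.2 in acute SD and AN rats and of 1929 and 1700 in chronic SD and AN rats. For Schwann cells, 4 of 6 and 0 of 6 were, with sums of 1764, 632.1, 1610 and 1875. For astrocytes, 3 of 4 were lower at 1 week and 0 of 3 at 8 weeks. Only 6 of 12 oligodendrocyte, 6 of 9 Schwann cell and 4 of 10 astrocyte symbols were named. All named oligodendrocyte and Schwann cell genes came from the supplementary gene table. Of background genes named that way, 54.0% were at least 2-fold lower at 1 week and 27.5% at 8 weeks. The counts of these lists were not tested against that share. Relative to the oligodendrocyte median, 9 of the 10 genes lay below it in the acute and all 10 in the chronic phase, with medians of -1.88 and -1.63, Gap43 being the exception at 0.12.

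Macrophage and fibroblast markers had acute ratios of the opposite sign. Of 6 macrophage genes, 2 were at least 2-fold higher in acute AN rats and none lower, beside 1.89% of all background genes that were higher. The list's sums were 4163 and 6831 in acute SD and AN rats and 3639 and 3737 in the chronic groups. Of 12 macrophage symbols 6 were named, 3 of them by gene order. Both genes past 2-fold were named through the supplementary gene table. Of 4 fibroblast genes 1 was higher, Fn1 (1.06), with sums of 2430 and 4156, then 990.6 and 1460. The 3 named endothelial genes stayed within 2-fold in both phases, with medians of -0.11 and 0.21. The part that the makeup of the tissue segment has in the levels of the 10 genes was not tested.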

How the data were processed

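RNA-seq of polyadenylated RNA from 12 rats was analysed, with 3 rats in each of 4 groups of strain and phase. Per the study's methods and the submitters' processing notes, reads were checked with FastQC, trimmed with cutadapt, mapped to RN4 with TopHat (1.5.0) and assembled with Cufflinks (0.0.6), and the strains were compared with Cuffdiff within each phase. The authors deposited 1 table for each phase with an FPKM for each strain, pooled over 3 rats. Fold changes, test statistics, p-values and q-values of the authors' own comparison are also in the tables, and they were not used here. Values per rat, reads behind a gene and strandedness are not given in the sources used here, so depth per gene is unknown and no interval was computed.

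Log2 ratios of AN over SD FPKM were computed without a pseudocount in Python 3.11.15 with pandas 2.3.3 and numpy 2.4.6, for genes with a mean FPKM of at least 1 over the 2 groups and both above 0. That left 11068 genes at 1 week and 11198 at 8 weeks. At 1 week, 2858 genes were at 0 in both groups, 3491 had a mean below 1 and 6 others were at 0 in 1 group. The computation was checked on simulated data. Each phase was compared within its own table. The genes and lists were chosen with earlier results of these data known, and no list was tested.

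Symbols came from the study's supplementary gene table for 1989 identifiers, from RGD synonyms of the GRCr8 gene table for 2725, and for 5351 from gene order and locus length between named neighbours. On 2160 held-out names, 1195 were named again and 1159 of these correctly (97.0%). The 15 lists hold 218 symbols. Coordinates are printed as in the tables (RN4), and promoter windows are RefSeq sequences on GRCr8. Named genes are the 10 genes, the extremes and the most abundant members of each list, and the 5 genes nearest to each neurofilament chain, and a few that this rule names are not reported here. Elavl2, Elavl4, Reg3b, Vip, Slc5a7 and P2rx3 are outside this rule and were named after their values were seen, for their AN values below 1. Alternatives were other pseudocounts, scalings, filters and folds, and ratios relative to marker lists.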

Additional observations from a re-analysis of the deposited data

How the results depend on the processing

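All 10 genes stayed at least 2-fold lower in AN rats in both phases when 0.1 or 1 was added to every FPKM. They also did so when ratios were centred on the median of all genes and when FPKM was scaled to the group sum. With no filter, or at a fold of 1.5, the count of 10 could not fall, because all 10 had already passed both lines. A minimum mean FPKM of 10, which changes no ratio, removed Ina and left 9 of 9. Over these settings, and with Nefh and Nefl left out for their shared loci (an alternative added after seeing the data), the median log2 ratio ran from -3.33 to -2.76 at 1 week and from -1.93 to -1.62 at 8 weeks, and the acute minus chronic median from -1.33 to -1.11. Scaling to the group sum shifted all log2 ratios by -0.10 and -0.07 and changed no direction of the 10 genes. At a fold of 4 the chronic count fell to 2. Relative to the median of neuron identity genes the acute median moved to -0.93 and the chronic one reversed to 0.34, and relative to oligodendrocyte genes, added after seeing the data, the acute median was -1.88; by construction these measure the 10 genes against other lower genes.

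No paired analysis was possible because the tables hold 1 pooled value for each group and no column for a rat. For the same reason no rat was left out in turn, and no values of single rats were compared. The differences here are between pooled groups of 3 rats, and their error between rats is unknown.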
